A study of Mus musculus with 2 samples.

Results

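The translation factors described here are the genes of cytosolic translation initiation, elongation and termination that the array names Eif1 to Eif6, Eef1, Eef2, Etf1, Gspt1 or Gspt2. Members were taken by these name patterns from the probes that are not controls on both arrays, leaving out the eIF4E-binding proteins (Eif4ebp) and the eIF2 kinases (Eif2ak). The pattern found 128 of 56605 probes and 61 of 37325 gene names. It also takes in Eef2k and Eef2kmt, which modify eEF2, the multisynthetase scaffold gene Eef1e1, the release factors, and Eif2c5, an older name of the Argonaute family.

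In cap-dependent translation, eIF4F binds the mRNA cap, eIF2 brings the initiator tRNA to the small ribosomal subunit, eIF3 and eIF1A assist scanning, and eIF5B joins the large subunit. During elongation eEF1A delivers aminoacyl-tRNA, eEF1B recharges eEF1A with GTP, eEF2 moves the ribosome along, and eRF1 with eRF3 ends the chain at a stop codon. In skeletal muscle eEF1A is made from a pair of genes: Eef1a1 is active in most tissues and in myoblasts, and Eef1a2 takes its place in mature muscle fibres.

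RNA came from C2C12, a mouse myoblast line, grown into myotubes over 4 to 6 days in 2% horse serum and exposed to exosomes for 24 h, with 1 array per group. The KPC-exo culture received 4 µg of exosomes from a cancer line made from a tumour of KPC mice, whose alleles include Trp53 LSL-R172H/+ and Pdx1-Cre, which drives recombination in the pancreas. The MPDC-exo control was exposed to exosomes from a ductal epithelial line of mouse pancreas. No dose is stated for it in the sources used here, each exosome source is 1 line, and no culture without exosomes was analysed here. With 1 array per group no difference has a replicate check and no p-value is given. "Higher" and "lower" therefore describe these 2 arrays.

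Levels are log2 signals relative to the 75th percentile of each array, which was 380 (MPDC-exo) and 639 (KPC-exo) units, and a difference is KPC-exo minus MPDC-exo. A gene counted as measured where at least 1 of its probes stood well above background on each array, and its brightest such probe stood for it. Across the 16993 measured genes the levels correlated at r = 0.99 and the median difference was 0.06. That median is the reference point below. Against the 7 spike-in probes used, every difference would be greater by 1.02, so all directions below are relative to the bulk of genes, and all 57 members would be higher with spike-in centring. Of the labelled myotube markers, 10 of 10 were measured, at a median level of 5.23 (MPDC-exo) and 5.18 (KPC-exo). Of 8 pancreatic duct markers, 2 were measured (Krt19 and Sox9), and Krt8, Krt18, Epcam, Cdh1, Muc1 and Cftr were not. The 4 measured fibroblast markers of 5 had a median level of 3.24 and 3.48, below that of the myotube markers on both arrays. The summed level of the fibroblast markers, which cannot be set against the myotube median, was 6.64 and 6.97. The 3 measured macrophage markers of 4 (Cd68, Csf1r and Ptprc) had a median of 0.03 and -0.77, and summed to 1.38 and 1.38. Taken gene by gene, their median difference was 0.29, opposite in direction to the change in median level. Kdr, the 1 measured endothelial marker of 3, read -1.82 and -1.89. The part of these markers in the values below was not tested. Fewer cells of a type and less RNA per cell cannot be told apart in such bulk RNA.

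Of the 61 translation factor genes, 57 were measured on both arrays. Eef1a2, Eif2s3y, Eif4e1b and Eif2c5 had only signals not well above background. As a set the 57 genes lay where all measured genes lay. Their median difference was 0.05, their SD was 0.22, and they ran from -0.44 for Etf1 to 0.61 for Eef2kmt. There were 28 members above the all-gene median and 29 below it. At a 1.5-fold threshold 1 member was higher (Eef2kmt) and 0 were lower, where 3.71% of all measured genes were higher and 3.72% lower. Of the 57 members 49 lay above the median signal, and among all genes above it 0.824% were higher and 1.33% lower.

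At a lower threshold, a log2 difference of 0.32, 5 members were higher (Eef2kmt, Eif4g2, Eef1e1, Eif4e3 and Eif2b4) and 5 were lower (Etf1, Eif3a, Eef1a1, Eif2s2 and Eif3j2), which is 8.77% each. The shares over all measured genes were 15.3% higher and 10.2% lower, and over genes above the median signal 10% and 6.21%. Set against the scanner software's own error of a difference, with a median of 0.20 for members, 6 of 57 members lay more than 2 errors from the all-gene median, where 12.9% of all measured genes did. These were Eef2kmt and Eif4g2 on the higher side, and Etf1, Eif3a, Eef1a1 and Eif2s2 on the lower side. For bright probes the software gives an error of about 10% of the signal, and the error was 0.20 for each of the 6. The rule thus acts much like a fixed cut in difference, not a precision measured per gene. Eef1e1 and Eif4e3 fell just short, at 0.407 and 0.406 from the all-gene median.

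**Figure D1:**
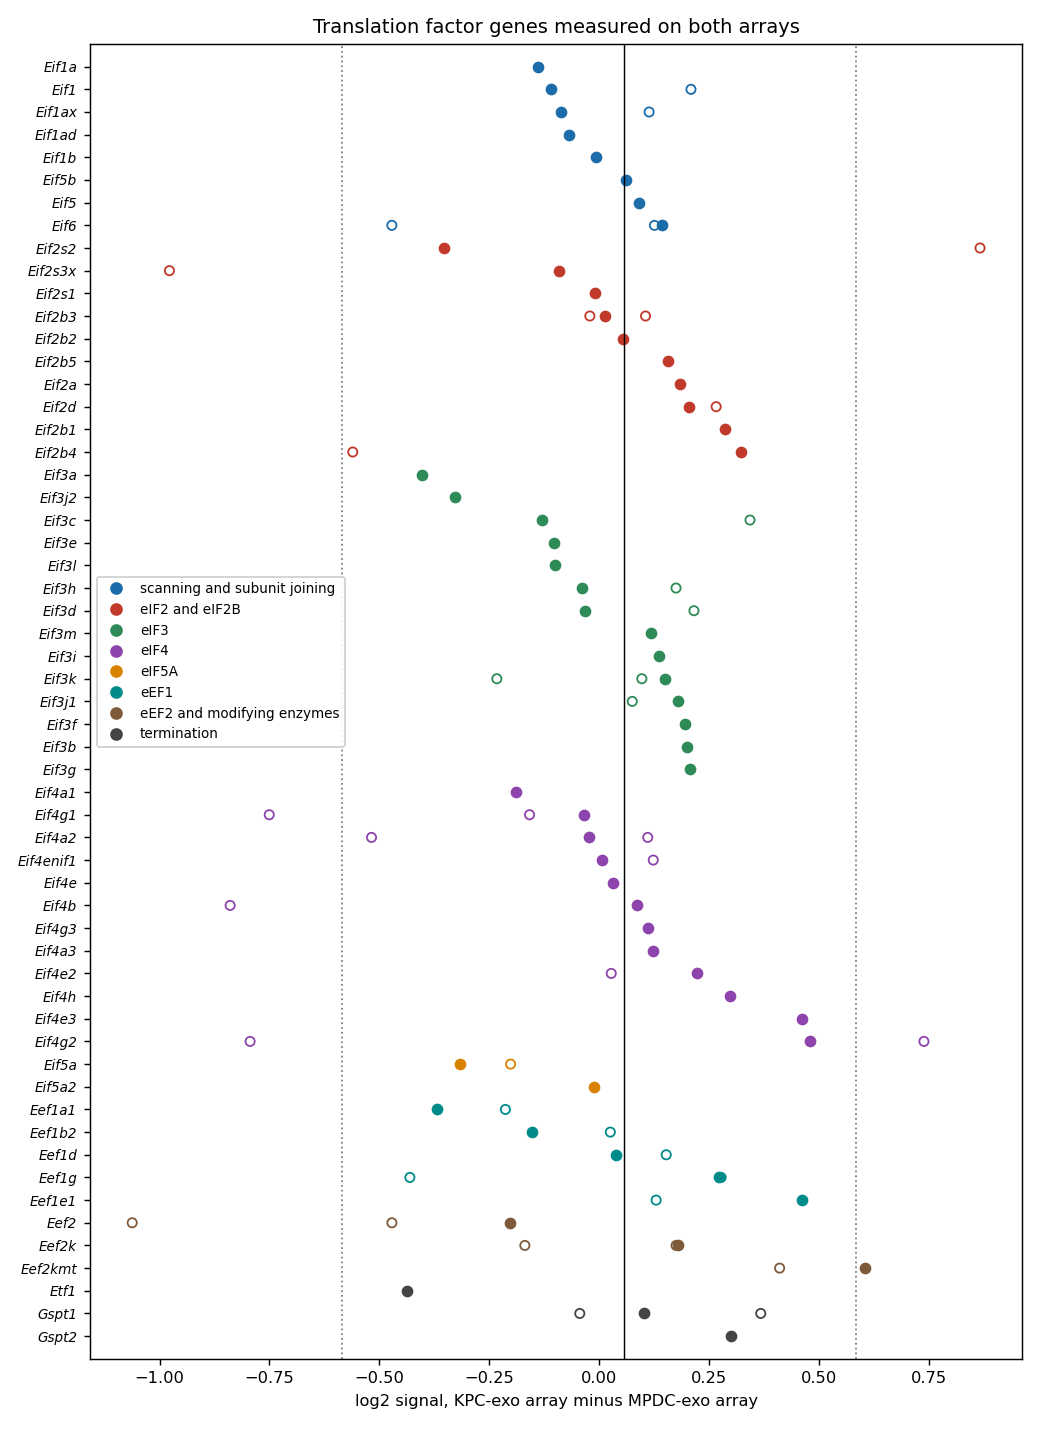
Log2 difference (KPC-exo minus MPDC-exo) of the 57 measured genes, coloured by role. Filled points are the brightest probe of a gene, open points its other measured probes, the solid line the median of all measured genes (0.06) and the dotted lines 1.5-fold. Only the filled point of Eef2kmt (0.61) lies past a dotted line, while open points of Eef2, Eif2s3x, Eif4b, Eif4g2, Eif4g1 and Eif2s2 do.

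Of the eEF1A genes, Eef1a1 was measured and Eef1a2 was not. The Eef1a1 probe read 6.90 (MPDC-exo) and 6.53 (KPC-exo), a difference of -0.37 (1.29-fold lower), or 0.65 with spike-in centring. This probe had 9 usable spots on each array, with SDs of 0.06 and 0.05, and the spots of the arrays did not overlap. The spots are repeats within 1 hybridisation and carry no biological spread. Probes spotted 10 times had a median spot SD of 0.03 on each array, so small shifts can separate their spots. The share of such probes without overlap over the whole array was not counted. A second Eef1a1 probe lay on the same side, at -0.21. The single Eef1a2 probe read 6.60 and 9.69 units, both surrogate values that the software puts in for signals near 0. On the centred scale these were -5.85 and -6.04, under the lowest signals called well above background (-3.61 and -3.76). Eef1a2 therefore has no fold, while the 10 myotube markers were measured. The best ungapped match of the Eef1a2 probe to the 2 Eef1a1 probes was 40.4% over 47 bases and 41.7% over 36. This sets probe against probe and does not show that either probe is specific to its gene. The match of each probe to the transcript of the other gene was not tested. The first 30 of 60 bases of these probes are shown because the isoform reading rests on them. They are written 5′ to 3′ with no part singled out. The first Eef1a1 probe lies at chr9:78326385-78326444 and the Eef1a2 probe at chr2:180884427-180884486, both on the minus strand of mm9. The coordinates given for the second Eef1a1 probe, chr9:78326260-78326284, cover fewer than its 60 bases.
Eef1a1: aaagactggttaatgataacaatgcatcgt
Eef1a1, second probe: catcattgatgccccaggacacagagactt
Eef1a2: cgggttcaatgtgaagaatgtgtccgttaa

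The subunits of the exchange factor eEF1B did not share a direction. Eef1b2, a catalytic exchange subunit, read 7.29 and 7.14 (-0.15), and its other probe 0.03. Eef1d, another exchange subunit, read 6.86 and 6.90 (0.04), with overlapping spots. Eef1g, the structural gamma subunit, read 6.42 and 6.69, a difference of 0.27 (1.21-fold higher), with 10 spots on each array that did not overlap. Its other probes gave 0.28 and -0.43. Eef1e1 read 1.86 and 2.32 (0.46), and 0.13 at its other probe. The 5 measured eEF1 genes had a median of 0.04.

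eEF2 and the enzymes that act on it spread widely. Eef2 read 8.12 and 7.91, a difference of -0.20 (1.15-fold lower). Its 10 and 9 spots did not overlap. Eef2k, the kinase that halts elongation by phosphorylating eEF2, read 1.69 and 1.86 (0.18), with probes from -0.17 to 0.18. Eef2kmt, a lysine methyltransferase of eEF2, read 1.61 and 2.22, a difference of 0.61 (1.52-fold higher), and its second probe 0.41. Over 13 alternative settings without spike-in centring Eef2kmt kept a difference between 0.51 and 0.65 and passed 1.5-fold in 7. Some of these 7, such as the dim-probe filters, left its value unchanged at 0.61. It fell short with the 75th percentile of detected probes (0.55), median centring (0.55), quantile normalization (0.54) and cyclic loess (0.53). The authors' value table (0.54) and the mean over measured probes (0.51) also fell short. The probes, shown because the one member past the threshold rests on them, lie on the minus strand of mm9 at chr16:5245377-5245436 and, across a longer interval, chr16:5247651-5248675.
Eef2kmt: gcaaactgttcccttacgaagagcattcag
Eef2kmt, second probe: atgttgtcattgcagcagatgtactgtact

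**Figure D2:**
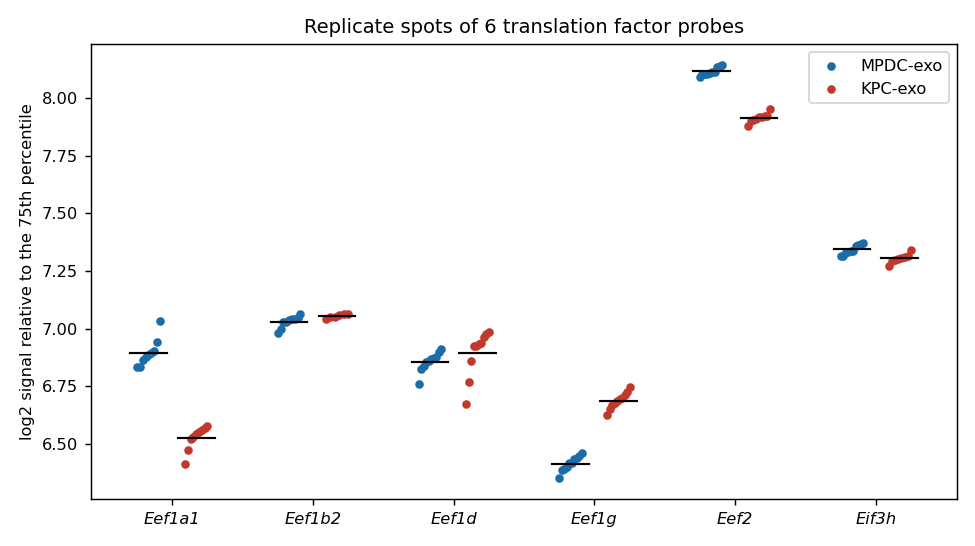
Log2 signal relative to the 75th percentile for each usable spot of 6 translation factor probes that are spotted several times, by array; black bars are means. The spots of Eef1a1 and Eef2 (lower on the KPC-exo array) and Eef1g (higher) do not overlap between arrays, while those of Eef1b2, Eef1d and Eif3h do. The Eef1b2 spots are of its other probe (0.03), not of the probe with 1 spot that stood for the gene (-0.15). The share of probes without overlap over the whole array was not counted.

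Among the factors of scanning and subunit joining, all 8 measured genes lay between -0.14 and 0.14. Eif1a, a scanning factor gene, read 3.05 and 2.91 (-0.14) and was the lowest. Eif1, which guards start codon choice, gave -0.11, and 0.21 at its other probe. Eif1ax gave -0.09, Eif1ad -0.07, Eif1b -0.01, Eif5b 0.06 and Eif5, the GTPase activator of eIF2, 0.09. Eif6, which keeps the large subunit from joining early, read 4.55 and 4.69 (0.14) and was the highest, with probes from -0.47 to 0.14. The probe at -0.47 was dim, at -1.7 and -2.2.

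Of the 11 genes named Eif2, which encode eIF2, its exchange factor eIF2B and the separate factors Eif2a and Eif2d, 10 were measured, with a median of 0.11. Eif2s1, the subunit phosphorylated in stress, read 3.23 and 3.22 (-0.01). Eif2s2, the beta subunit, read 4.17 and 3.81 (-0.35). Its other probe gave 0.87, the widest conflict of sign among the probes of this complex, but was dim at -2.75 and -1.88. Eif2s3x read -0.03 and -0.12 (-0.09), with -0.98 at its other measured probe, which was dimmer at -1.77 and -2.75. The 5 eIF2B genes had a median of 0.16: Eif2b4 0.32, Eif2b1 0.29, Eif2b5 0.16, Eif2b2 0.05 and Eif2b3 0.01. The probes of Eif2b4 disagreed, since its level at the brightest probe was 3.70 and 4.03 while its upstream probe gave -0.56. That upstream probe was dim at -1.66 and -2.22. Eif2d, a non-canonical initiation factor, gave 0.21, and Eif2a 0.18.

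All 14 genes of the eIF3 scaffold were measured, with a median of 0.04, 7 above the all-gene median and 7 below. Eif3a, the largest subunit, read 3.69 and 3.29 (-0.40) and was the lowest, followed by Eif3j2 at 0.35 and 0.02 (-0.33). Eif3g, an RNA-binding subunit, was the highest at 6.07 and 6.27 (0.21). The rest lay between -0.13 for Eif3c and 0.20 for Eif3b. Eif3h, with 10 and 8 spots, gave -0.04 with overlapping spots. The gene Eif3j1 gave 0.18, opposite in sign to its near copy Eif3j2, and how far the probes of such copies share signal was not tested.

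In the eIF4 group 12 of 13 genes were measured, with a median of 0.10. Of the eIF4F genes, Eif4e, the cap-binding protein, read 2.81 and 2.84 (0.03), Eif4g1, its scaffold, 5.56 and 5.53 (-0.03), and Eif4a2, a helicase paralogue, 5.11 and 5.09 (-0.02). Eif4a1, the main helicase, was the lowest of the group at 6.29 and 6.11 (-0.19). Of the helicase partners, Eif4b read 5.12 and 5.21 (0.09) and Eif4h 6.04 and 6.34 (0.30). Eif4g2, a scaffold relative without the cap-binder site, was the highest at 3.87 and 4.35, a difference of 0.48 (1.39-fold higher). Eif4e3, an eIF4E relative, read -0.58 and -0.11 (0.46), and Eif4e2 gave 0.22. Eif4g3 gave 0.11, Eif4a3, which also marks exon junctions, 0.12, and Eif4enif1, the eIF4E transporter, 0.01. Of Eif4a2, Eif4b and Eif4g1, other probes reached -0.52, -0.84 and -0.75. These probes were dimmer than those that stood for the genes, at -2.76, 0.005 and -1.65 on the MPDC-exo array.

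Eif5a, which carries hypusine and helps ribosomes over hard-to-join residues, read 7.34 and 7.02 (-0.32), and -0.20 at its other probe. Its paralogue Eif5a2 read -0.50 and -0.51 (-0.01). At termination, Etf1 (eRF1) read 4.50 and 4.06, a difference of -0.44 (1.35-fold lower) from its 1 measured probe. Gspt1 (eRF3a) read 3.60 and 3.70 (0.10), with probes from -0.04 to 0.37, and Gspt2 (eRF3b) -0.86 and -0.56 (0.30).

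Bright members were mostly lower on the KPC-exo array. The 11 members in the brightest 5% of measured genes had a median of -0.11, and 10 of them lay below the all-gene median. The same held for all 850 genes of that signal range, with a median of -0.10 and 675 below. Relative to all measured genes the median of the 11 members was -0.16. It became -0.08 with quantile normalization, -0.09 with cyclic loess and -0.01 as the mean over measured probes. With no filter on dim probes it was 0.04, but there the all-gene median moved from 0.06 to -0.15. Eef1a1, Eef2, Eif5a and Eef1g kept their values in that setting. Against those 850 genes Eef1a1 stood at the 5.88th percentile of the difference, with 51 genes as low or lower, Eif5a at the 11.8th and Eef2 at the 29.5th. Eef1g stood at the 98th, with 17 genes as high or higher. Across the 57 members the difference and the signal had a Spearman rho of -0.31, and across all 16993 measured genes -0.07. With the GC content of the probe the rho was 0.43 across members and 0.04 across all measured genes. Genes are not independent replicates, and all these values share the same 2 arrays. After quantile normalization, which gives both arrays 1 distribution, Eef2 gave -0.02 and Eef1a1 -0.32.

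**Figure D3:**
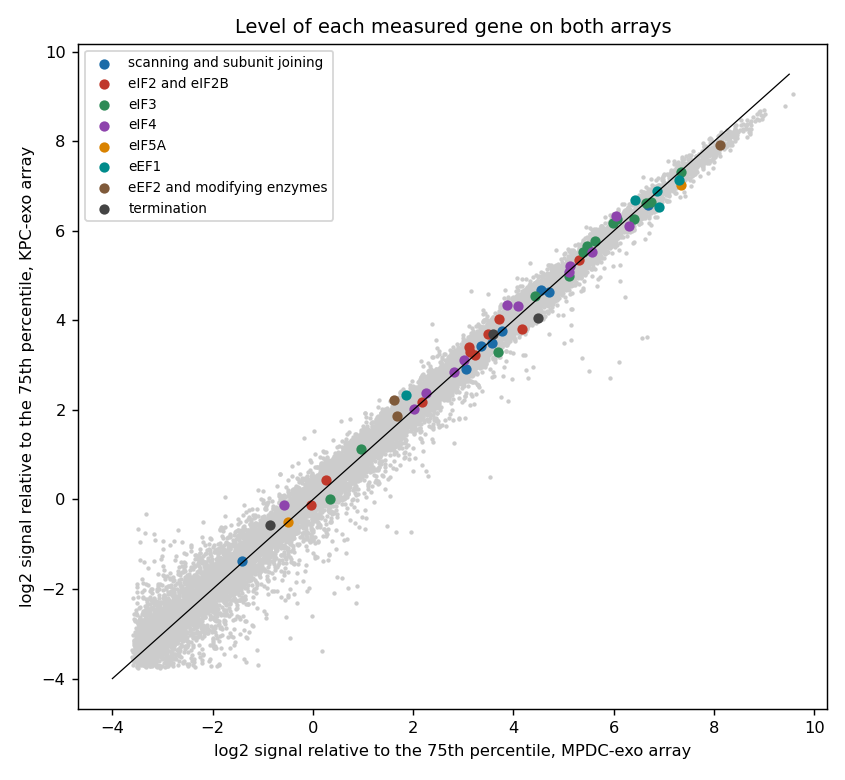
Log2 signal relative to the 75th percentile on the MPDC-exo array (x axis) and the KPC-exo array (y axis) for all measured genes (grey) and the members (coloured by role); the line marks equal levels. At the bright end 10 of the 11 members in the brightest 5% of genes lie below the all-gene median, with Eef1g above it.

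Probes of 1 gene often gave different values. Among the 29 members with several measured probes, 10 had all of them on 1 side of the all-gene median, and in 10 they spanned more than 0.5. The pooled SD between probes of a gene was 0.37 for members and 0.36 over 5736 genes. In comparison, probes spotted 10 times had a median spot SD of 0.03. A further 5 probes were well above background on 1 array. The KPC-exo value was at least 1.69-fold and 2.18-fold higher for those of Eif4g1 and at least 1.15-fold higher for that of Eif4e, while those of Eif2d and Eif3a were at least 2.16-fold and 1.37-fold lower. For each bound, the dim side was set to the probe's own signal or to the dimmest detected signal of that array, whichever was higher. The bounds leave out the error of dim signals, which for the Eif4e probe was 27.6% (MPDC-exo) and 19.0% (KPC-exo). The share of such 1-array probes over the whole array is not given here.

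Upstream and downstream probes of 1 member often gave different values. In 16 members RefSeq mRNA probes lay at least 1000 bases apart in the genome. The difference was lower at the most upstream probe than at the most downstream one in 11, and the median gap was -0.27. With spots that the software marked for their background left out the gap was -0.59, with the upstream probe lower in 8 of 13 genes, and it was lower in 10 of 16 with quantile normalization or normexp. The same was seen beyond the translation factors, with a median of -0.18 over 3258 genes and an upstream probe lower in 65.6% of them, or 68.1% in the brightest 25% of signal. In Eif4g2 the upstream probe gave -0.79 and the downstream one 0.48, and in Eef2 -1.06 and -0.20. Eif4b gave -0.84 and 0.09, and Eef1g -0.43 and 0.27. These upstream probes were also dimmer than the downstream ones. On the MPDC-exo array they read 0.73 (Eif4g2), 1.51 (Eef2), 0.005 (Eif4b) and 2.65 (Eef1g). Their downstream probes read 3.87, 8.12, 5.12 and 6.42. In Eif4e2 the upstream probe was the brighter one, at 4.09 against 3.09. Position and brightness of the probes were not separated. In Eif2d, Eif4enif1, Eif4a2, Eif4e2 and Gspt1 the upstream probe had the higher difference. Distances are genomic and include introns. This comparison was made after the values were seen, and its cause was not tested. The Eef2 and Eif4g2 probes are shown because the reading of each gene depends on the probe used. Those of Eef2 lie on the plus strand of mm9 at chr10:80645059-80645118, chr10:80644013-80644072 and chr10:80640435-80640494. Those of Eif4g2 lie on the minus strand at chr7:118216077-118216136, chr7:118217856-118217915 and chr7:118222011-118222809. From downstream to upstream, the differences were -0.20, -0.47 and -1.06 for Eef2, and 0.48, 0.74 and -0.79 for Eif4g2. The first probe of each stood for its gene.
Eef2, downstream: cgcgcagatgtccaaaagtctaaataaatg
Eef2, middle: atgttcatgatgtgaccctgcatgctgatg
Eef2, upstream: gtgccatcatggacaagaaagccaacatcc
Eif4g2, downstream: actgcgaaaattcattccgctgtaacgttt
Eif4g2, middle: aaagataacatctctcccaaacttcatgta
Eif4g2, upstream: ctgattgtggacaaagccttagaagagcca

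**Figure D4:**
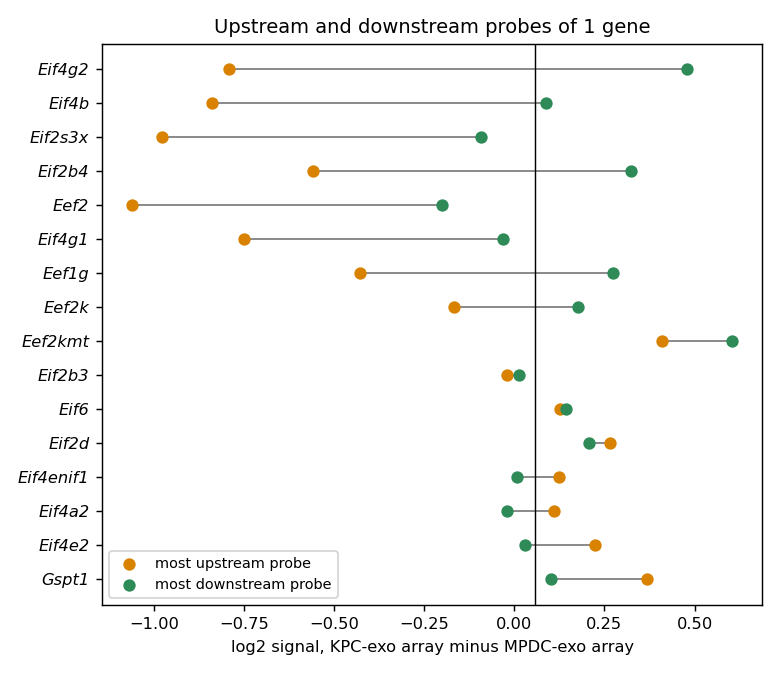
Log2 difference (KPC-exo minus MPDC-exo) at the most upstream and most downstream probe of 16 translation factor genes; the vertical line is the median of all measured genes. The upstream probe has the lower difference in 11 genes, most widely in Eif4g2 (-0.79 against 0.48). Upstream probes such as those of Eif4g2 and Eef2 were also dimmer, and position and brightness were not separated.

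The neighbouring steps of protein synthesis give the setting. Of 51 other genes of the pathway 50 were measured, with a median of 0.10 and 0 past 1.5-fold. All 5 genes of poly(A) binding lay above the all-gene median, at a median of 0.22, from Paip2b (0.09) to Paip1 (0.34). Among the cap-signalling genes, whose median was 0.00, Eif4ebp1, the repressor of eIF4E, read 5.08 and 5.60 (0.52), and Rps6kb1, the S6 kinase, 2.82 and 2.54 (-0.28). The eIF2 kinases and phosphatase subunits had a median of -0.14, with Eif2ak1 at 0.15 and Eif2ak2 at -0.29. The enzymes of hypusine and diphthamide, which modify eIF5A and eEF2, had a median of 0.17, from Dph2 (-0.16) to Dph3 (0.20). The helicases, recycling and rescue factors had a median of 0.05, from Ddx3x (-0.34) to Secisbp2 (0.44). The mitochondrial factors, of which Mtrf1 was not measured, had a median of 0.13, from Mtif3 (-0.41) to Mtif2 (0.37).

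The 79 measured cytosolic ribosomal protein genes of 83 had a median of -0.11, with 68 below the all-gene median and 0 past 1.5-fold. In the brightest 5% of measured genes, which held 76 of them, their median was -0.11 and that of all 850 genes there -0.10. Relative to all genes the median of the ribosomal protein genes was -0.16, and -0.01 after quantile normalization. With no filter on dim probes it was 0.04, but there the all-gene median moved to -0.15. The 20 aminoacyl-tRNA synthetase genes had a median of 0.04, with 1 at least 1.5-fold lower. The translation factors, at 0.05, lay close to the synthetases, and no test of differences between these sets was made.

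**Figure D5:**
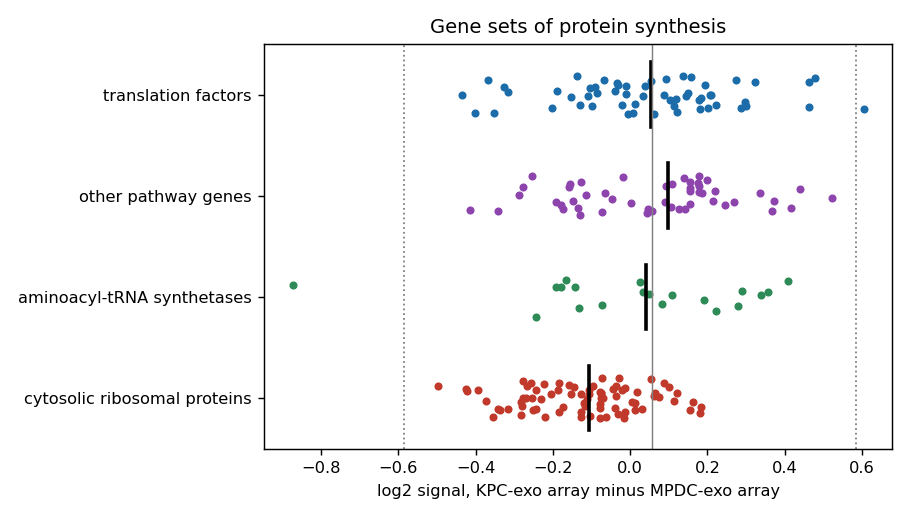
Log2 difference (KPC-exo minus MPDC-exo) of each measured gene in 4 sets of protein synthesis; black bars are set medians, the grey line the median of all measured genes and dotted lines 1.5-fold. Points are spread vertically for legibility. The medians are 0.05 for translation factors, 0.10 for other pathway genes, 0.04 for synthetases and -0.11 for ribosomal proteins.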

How the data were processed

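The authors extracted the spots in Agilent Feature Extraction 10.7.1.1, per the submitters' processing notes. The deposited files hold background-subtracted linear intensity per spot, without any scaling of one array to the other, per the file headers. The deposited value table holds log2 values made by steps not given in the sources used here. It correlated with the scanner values at 1.00 on both arrays, had a median of 4.88 in both columns and served only as an alternative. Both arrays lay on 1 slide and 1 scan, per the file headers.

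Spots marked as non-uniform or population outliers were left out (102 and 166), log2 was taken, spots were averaged per probe and the 75th percentile of each array was subtracted. A probe was well above background where at least 50% of its spots were, which held for 45.9% (MPDC-exo) and 47.6% (KPC-exo) of probes. No member spot of 182 per array was saturated. RefSeq names (GRCm38.p6) matched 97 member probes and renamed 0. The 6 genes whose current symbol would match, but whose name in the files does not, were left out.

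Described by full values were members past 1.5-fold, the highest and lowest of each role, the factors of eIF4F, eEF1A, eEF2, eIF5A and release, and members with probes over 0.5 apart; the others are given by their difference. Members and lists were chosen with earlier results of these data known. Alternatives covered centring, quantile normalization, cyclic loess and normexp (offset 50; limma 3.58.1 in R 4.3.3), dim-probe filters, spot flags, probe choice and thresholds. Scripts ran in Python 3.11.15 and were tested on simulated data. The full genotype of the KPC mice is not reported here. The number of arrays limits the precision.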

Additional observations from a re-analysis of the deposited data

How the results depend on the processing

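The count of members at least 1.5-fold higher was 1 in the values reported. It was 0 with centring on the 75th percentile of detected probes, median centring, quantile normalization, cyclic loess, the mean over measured probes, the authors' value table and a 2-fold threshold, 2 with no filter on dim probes (8.21% of all genes then tested), 5 at a threshold of 0.32 (log2) and 56 with spike-in centring (93.8% of all measured genes). The count at least 1.5-fold lower was 0, and became 1 with no filter on dim probes (7.15% of all genes) and 5 at 0.32. The Eef1a1 difference was 0.65 with spike-in centring and between -0.42 and -0.29 in the 13 other alternatives. The median of the members relative to all measured genes ran from -0.02 to 0.19, the latter with no filter on dim probes, where the all-gene median moved to -0.15. The probe choices, the most downstream measured probe and RefSeq mRNA probes only, both chosen after seeing the data, moved none of these. Eef1a2 had no value above background, so its difference was not tried under alternatives. No array could be left out. No paired analysis was possible because each group has 1 array and the labels carry no replicate numbers.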
